A study of Brassica napus with 12 samples.

Results

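The 200 most abundant transcripts of the first true leaf of Brassica napus (oilseed rape) were described in the cultivars Avatar and Zhongshuang 9, after 24 h of complete submergence or 24 h in air. Members are the 200 of 101040 annotated coding sequences with the highest mean TPM over all 12 libraries. TPM is the estimated count divided by an effective length and scaled to the same total in each library. The level itself chose the members, so levels and shares are given as descriptions with no test. A member that is scarce in some groups reached the limit through the groups where it is high. The difference between groups, and its p-value, are then not independent of how that member was chosen. The lowest members were BnaA02g28130D, BnaC06g36750D and BnaC03g70700D, at mean levels of 669, 667 and 660 TPM. The next targets below the limit were BnaC05g49400D, BnaA07g16530D and BnaC01g05230D, at 657, 650 and 642 TPM.

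Seedlings were 16 days old when leaves were taken, and treatment began on day 15 in the light part of an 8 h day. The groups were Avatar under submergence, Avatar in air, Zhongshuang 9 under submergence and Zhongshuang 9 in air, with 3 libraries each, numbered 1, 3 and 4. Submerged plants stood in tap water, and control plants stood in like boxes without water. The labels do not say whether a library is 1 plant or several, or whether replicates come from separate sowings, so p-values measure the spread between these samples, which may be technical.

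In a green leaf the transcript pool is usually uneven, and messages for photosynthesis, carbon fixation, translation and stress proteins tend to be prominent. Water around a leaf slows the exchange of oxygen and carbon dioxide and dims the light, and many plants lower photosynthetic messages and raise messages for sugar breakdown and fermentation under such conditions. Brassica napus is an allotetraploid that carries an A and a C subgenome, so many of its genes are present as closely related A and C copies. Identifiers name the subgenome by the letter after Bna, and the chromosome and a gene number after it; "nn" stands for no assigned place. Only 8 of the 200 members had a match in RefSeq's table of Da-Ae genes, and 0 of them carried a gene symbol of its own. Members are therefore named by identifier, with no function attached, and the leaf label could not be set against marker genes. Of these 8 members, 2 lie on the other subgenome in Da-Ae, so the letter in an identifier is the annotation's assignment.

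Libraries held 24389813 to 35873196 estimated counts. Some libraries stood apart from their own replicates. Zhongshuang 9 submergence replicate 1 had a rank correlation across genes of 0.89 with either of the other replicates in its group, while replicates 3 and 4 reached 0.988 between themselves. Single members dropped to almost nothing in single libraries. BnaC02g03550D had 6 TPM in Avatar air replicate 3, against 1296 and 1306 TPM in replicates 1 and 4 of that group. It had 12.3 TPM in Zhongshuang 9 submergence replicate 1, against 1999 and 1920 TPM in replicates 3 and 4. Counts of members that changed are given below also without these 2 libraries, Avatar air replicate 3 and Zhongshuang 9 submergence replicate 1. In Zhongshuang 9 air replicate 4, 12 of the 13 members on chromosome C08 stood under 70% of the mean of the other replicates of that group, with a median of 53.7%. In Avatar submergence replicate 1 it was 5 of 13, with a median of 75.0%. Their part in the results was not tested beyond leaving out each library in turn.

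The members held a smaller share of all TPM under submergence than in air in both cultivars. In Avatar the share was 30.6%, 31.8% and 33.2% in the submergence libraries, against 37.3%, 35.0% and 35.3% in the air libraries. In Zhongshuang 9 it was 27.8%, 30.1% and 29.8% under submergence, against 37.5%, 35.9% and 36.3% in air. The ranges did not overlap within either cultivar. The means were 31.9% ± 1.30 under submergence and 35.9% ± 1.24 in air for Avatar, and 29.3% ± 1.25 under submergence and 36.6% ± 0.806 in air for Zhongshuang 9 (SD, n = 3 each). The share was also lower when each library was given its own 200 highest targets. It was then 33.3% ± 1.29 under submergence and 37.5% ± 1.15 in air in Avatar, and 31.4% ± 0.666 under submergence and 38.2% ± 0.663 in air in Zhongshuang 9 (SD, n = 3 each). In bulk leaf RNA, fewer cells of a type and less RNA per cell cannot be told apart.

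**Figure D1:**
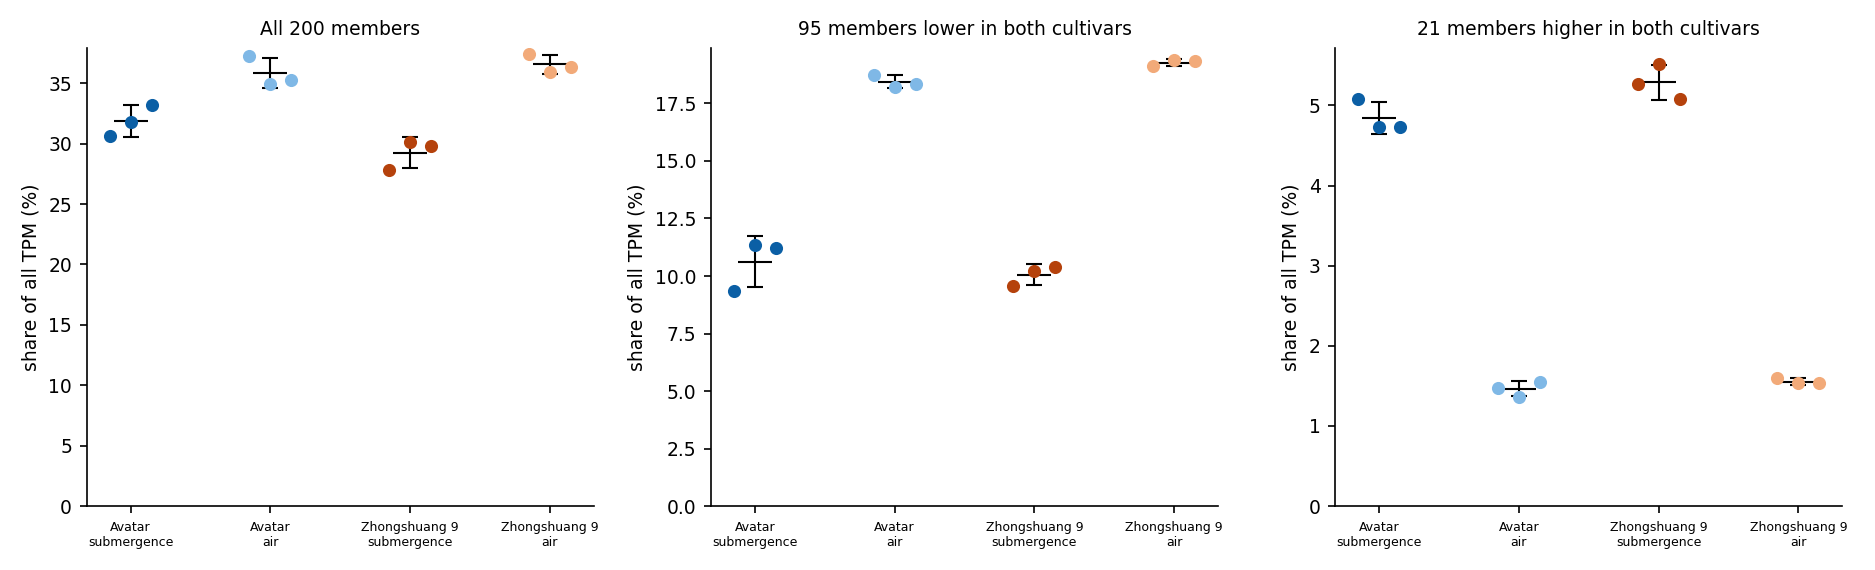
Share of all TPM (percent, from 0) held by all 200 members, by the 95 members called lower in both cultivars and by the 21 called higher in both, in Avatar under submergence, Avatar in air, Zhongshuang 9 under submergence and Zhongshuang 9 in air. Points are libraries, the bar is the mean and the whiskers are the SD (n = 3); the lower members held 10.6% and 10.1% of TPM under submergence, against 18.4% and 19.3% in air.

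The groups shared most of their abundant transcripts. Of the members, 170 were among the 200 highest of the Avatar submergence group, 175 of the Avatar air group, 160 of the Zhongshuang 9 submergence group and 171 of the Zhongshuang 9 air group. In all 4 groups it was 127. In Avatar the 200 highest under submergence and the 200 highest in air shared 156 targets, which is 78.0% of each list. In Zhongshuang 9 these lists shared 141 targets, which is 70.5% of each. Over the 4 groups, 304 targets were among the 200 highest at least once. Within a group the members' levels usually agreed well between replicates, with a median coefficient of variation of 10.8% in Avatar under submergence, 9.14% in Avatar in air, 13.8% in Zhongshuang 9 under submergence and 6.54% in Zhongshuang 9 in air. It exceeded 30% for 31, 27, 51 and 23 members in the same order of groups.

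Levels among the members spanned 660 to 9945 TPM on average. The 10 highest members together held 5.53% ± 0.404 of all TPM under submergence and 6.51% ± 0.498 in air in Avatar, and 5.52% ± 0.571 under submergence and 8.32% ± 0.383 in air in Zhongshuang 9 (SD, n = 3 each). Of these 10, 5 have a coding length of 546 bases and 3 of 804 bases. Lengths of all 101040 targets are multiples of 3, so they are taken as coding lengths. Among all members, 8 have a length of 546 bases (5 on A and 3 on C chromosomes), 9 of 801 bases, 7 of 438 bases, 6 of 243 bases and 6 of 804 bases. In total 141 members share their length with another member. An equal length does not show that the sequences are alike, and no sequences were used here.

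The 8 members of 546 bases had the highest summed TPM of these length groups except in submerged Avatar, where the 6 members of 804 bases summed to 27637 TPM on average, against 25842 TPM for those of 546 bases. The TPM of the members of 546 bases summed to 21817, 22560 and 33149 in Avatar under submergence, against 43832, 56004 and 42628 in Avatar in air. In Zhongshuang 9 they summed to 33557, 28771 and 32706 under submergence, against 63570, 65829 and 71383 in air. Every submergence library lay below every air library of its cultivar, and the sums came to 2.58% and 4.75% of all TPM in Avatar and to 3.17% and 6.69% in Zhongshuang 9, submergence before air. Of the 8, 6 passed the test as lower in both cultivars, and none as higher.

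BnaA04g08640D, the most abundant transcript of the series, varied within Avatar more than between treatments. It had 9213, 1325 and 11194 TPM in Avatar under submergence, against 2506, 10522 and 2916 TPM in Avatar in air. In Zhongshuang 9 it had 10464, 8597 and 9258 TPM under submergence, against 17079, 17589 and 18678 TPM in air. The groups did not overlap in Zhongshuang 9 and overlapped fully in Avatar. The log2 fold change was 0.13 ± 0.66 (SE) in Avatar and -1.20 ± 0.67 in Zhongshuang 9, with adjusted p of 0.901 and 0.175 by edgeR's quasi-likelihood test over 3 libraries a group. Over 21 alternatives the adjusted p, by the tool used in each, ran from 0.000626 to 0.350 in Zhongshuang 9. In Avatar it ran from 0.228 to 0.964. BnaA04g27920D, also of 546 bases, had 738, 3380 and 849 TPM in Avatar under submergence, against 7878, 4963 and 7908 TPM in Avatar in air. In Avatar it was high under submergence in the library where BnaA04g08640D was low, and low in air in the library where BnaA04g08640D was high. Zhongshuang 9 had 1230, 2966 and 3357 TPM under submergence, against 7810, 8009 and 8460 TPM in air. It fell in both cultivars, with log2 fold changes of -2.40 ± 0.60 and -1.95 ± 0.59 (SE) and edgeR adjusted p of 0.00901 and 0.0205, and the call in Zhongshuang 9 was lost in 3 of 21 alternatives (adjusted p up to 0.0544). The coefficient of variation of the sum of all 8 was 24.5% under submergence and 15.6% in air in Avatar, and 8.06% under submergence and 6.01% in air in Zhongshuang 9. The median coefficient of variation of the single members was 38.8% under submergence and 17.3% in air in Avatar, and 14.9% under submergence and 5.89% in air in Zhongshuang 9. Estimated counts are divided between targets that share reads, and 78.4% of the members' values were not whole numbers (tolerance 0.001), against 36.3% of all values. The latter include targets with low counts, and a count of 0 is a whole number. These shares therefore do not compare targets of like level.

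**Figure D2:**
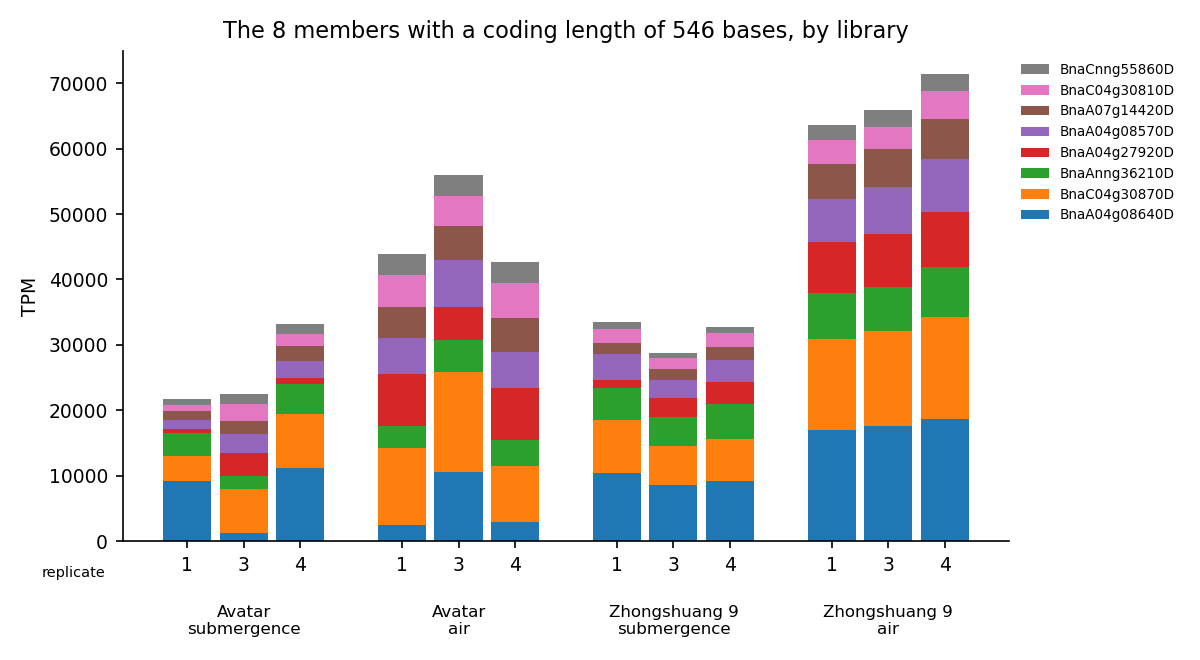
TPM of the 8 members with a coding length of 546 bases, stacked by library (x axis: replicates 1, 3 and 4 of each group; y axis: TPM from 0; colours: members). Bars reach 21817 to 33557 TPM under submergence and 42628 to 71383 TPM in air, and the blue and red parts (BnaA04g08640D and BnaA04g27920D) trade places between Avatar libraries.

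Of the other 8 among the 10 highest, BnaC04g30870D (546 bases) had 3792, 6674 and 8196 TPM in Avatar under submergence, against 11763, 15369 and 8543 TPM in air. Its Zhongshuang 9 values were 8057, 5989 and 6445 TPM under submergence, against 13846, 14563 and 15666 TPM in air. The groups did not overlap in either cultivar, and it fell, with log2 fold changes of -1.26 ± 0.30 and -1.39 ± 0.30 (SE; edgeR adjusted p = 0.00675 and 0.00336). BnaA04g08570D, which lies 70 gene numbers from BnaA04g08640D and has the same length, also fell in both, with log2 fold changes of -1.75 and -1.41. BnaC03g59520D (804 bases) fell with log2 fold changes of -0.76 and -0.63, calls that were lost in 4 alternatives for Avatar and 9 for Zhongshuang 9 out of 21. BnaA07g07560D (804 bases) and BnaAnng36210D (546 bases) passed the test in Zhongshuang 9, with log2 fold changes of -1.27 and -0.82, and missed it in Avatar with -0.70 and -0.61. In Avatar their adjusted p over 21 alternatives, by the tool used in each, ran from 0.0251 to 0.377 and from 0.00838 to 0.397. The Zhongshuang 9 call of BnaAnng36210D was lost in 8 of 21 alternatives. BnaA04g20150D (804 bases) had mean levels of 9486 TPM under submergence and 10148 TPM in air in Avatar, and 6395 TPM under submergence and 7228 TPM in air in Zhongshuang 9. BnaC09g16500D (180 bases) had 8252 and 6337 TPM in Avatar and 7497 and 7064 TPM in Zhongshuang 9, submergence before air. Neither was called in any of the 5 contrasts. For submergence against air the lowest adjusted p of BnaA04g20150D over 21 alternatives was 0.00803 in Avatar and 0.0483 in Zhongshuang 9. For BnaC09g16500D it was 0.206 and 0.431, by the tool used in each.

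The 1 member among these 10 that rose was BnaA07g32150D (240 bases). It had 8760, 7492 and 6237 TPM in Avatar under submergence, against 1534, 1484 and 2155 TPM in air. In Zhongshuang 9 it had 5823, 8612 and 6997 TPM under submergence, against 2486, 2487 and 2510 TPM in air. The treatments did not overlap, and the log2 fold change was 1.74 ± 0.20 in Avatar and 1.24 ± 0.20 in Zhongshuang 9 (SE; edgeR adjusted p = 8.95e-05 and 0.000543).

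Many more members were lower than higher under submergence. All 200 members passed the filter on low counts and were tested with the other targets, 55674 in all. In Avatar 105 members fell and 22 rose (edgeR adjusted p under 0.05), where 18.4% of all tested targets fell and 21.6% rose. In Zhongshuang 9 116 members fell and 28 rose, where 22% of all tested targets fell and 22.5% rose. In both cultivars 95 members fell and 21 rose, against 14.3% and 15.8% of all tested targets, and 0 members were called in opposite directions, against 0.23% of all tested targets. The median log2 fold change of the members was -0.60 in Avatar and -0.74 in Zhongshuang 9, against 0.11 and 0.01 over all tested targets. Without the 2 libraries that lack BnaC02g03550D, 120 members fell and 23 rose in Avatar (all tested targets: 18.9% and 21.6%), and 119 fell and 26 rose in Zhongshuang 9 (22.1% and 21.7%). With library totals in place of TMM factors the median of all tested targets moved to 0.45 in Avatar and 0.29 in Zhongshuang 9, and 71 members fell and 34 rose in Avatar (11.8% and 33.2% of all tested targets), and 98 fell and 32 rose in Zhongshuang 9 (16.3% and 30.8%). With library totals 63 members (31.5%) fell and 29 (14.5%) rose in both cultivars, against 9.05% and 23.9% of all tested targets. The 63 were all among the 95, and the 29 included all 21. With limma on log2(TPM + 1) 57 members (28.5%) fell and 27 (13.5%) rose in both, against 9.72% and 21.9% of all tested targets. The 57 were again all among the 95, and the 27 included all 21. No member's call turned to the other direction with library totals.

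**Figure D3:**
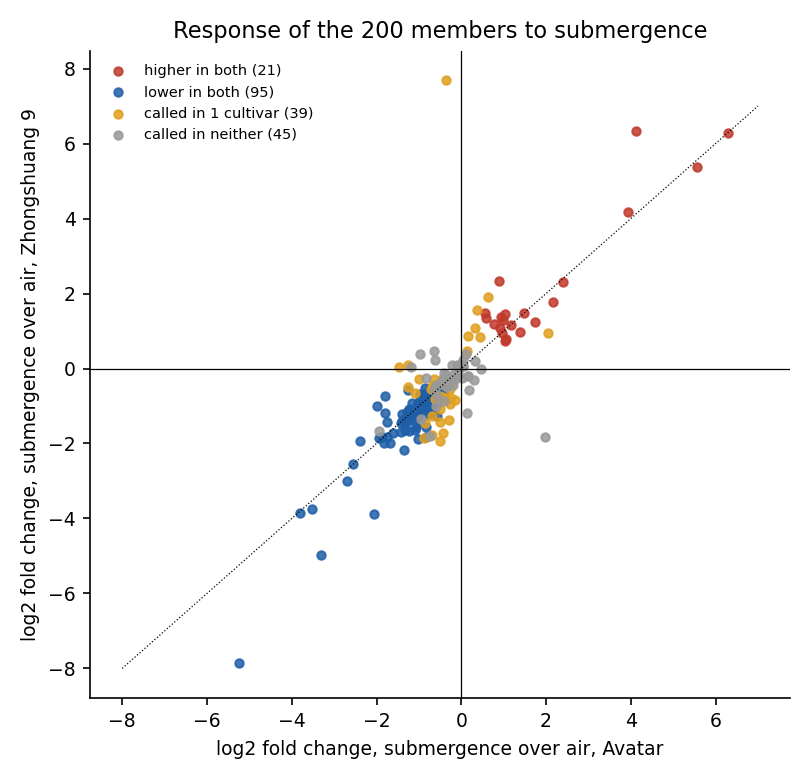
Log2 fold change of the 200 members, submergence over air, in Avatar (x axis) and Zhongshuang 9 (y axis), from edgeR on TMM-scaled counts; each point is 1 member, coloured by its calls, and the dotted line marks equal change. Of the members, 95 were lower in both cultivars, 21 higher in both, 39 called in 1 cultivar and 45 in neither; the point at the top near 0 on the x axis is BnaC03g70700D, whose value rests on 1 library.

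Most falls were moderate. Among the 95 members that fell in both cultivars the median log2 fold change was -0.98 in Avatar and -1.07 in Zhongshuang 9, 39 fell at least 2-fold in both and 7 at least 4-fold in both. BnaC04g19890D (414 bases) fell the furthest. It had 11.2, 78.4 and 115 TPM in Avatar under submergence, against 2097, 1941 and 1984 TPM in air. Zhongshuang 9 had 4.24, 14.9 and 12 TPM under submergence, against 1916, 2121 and 1993 TPM in air. In air its level was alike in the 6 libraries, and under submergence every library stood far below every air library. The log2 fold change was -5.25 ± 0.77 in Avatar and -7.86 ± 0.88 in Zhongshuang 9 (SE; edgeR adjusted p = 0.000424 and 5.03e-05). BnaAnng27610D (357 bases) averaged 188 ± 105 TPM under submergence and 1959 ± 374 TPM in air in Avatar, and 177 ± 69.5 TPM under submergence and 2153 ± 328 TPM in air in Zhongshuang 9 (SD, n = 3 each). Its log2 fold changes were -3.8 and -3.87. Both members were chosen through their levels in air, so these gaps and p-values are not independent of that choice. BnaC09g44830D (195 bases), named after its values were seen, had -3.51 and -3.74.

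The 21 members that rose in both cultivars took up 4.84% ± 0.199 of all TPM under submergence and 1.46% ± 0.0920 in air in Avatar, and 5.29% ± 0.218 under submergence and 1.55% ± 0.0385 in air in Zhongshuang 9 (SD, n = 3 each). They were grouped by this response, so these shares describe them only. The 95 that fell held 10.6% ± 1.12 and 18.4% ± 0.280 in Avatar and 10.1% ± 0.448 and 19.3% ± 0.144 in Zhongshuang 9, submergence before air. The other 84 members held 16.4% and 15.9% in Avatar and 13.9% and 15.7% in Zhongshuang 9.

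Some members were scarce in air. Of the 21 that rose in both cultivars, 4 averaged under 100 TPM in air in both cultivars. These 4 were chosen through their submergence levels, so their gaps and p-values are not independent of that choice. BnaA03g15610D (327 bases) had 1455, 1548 and 1422 TPM in Avatar under submergence, against 13.4, 13.8 and 15.2 TPM in air. Its Zhongshuang 9 values were 1041, 2041 and 1526 TPM under submergence, against 21.2, 12.7 and 14.6 TPM in air. The treatments lay far apart and the log2 fold change was 6.29 ± 0.33 in Avatar and 6.28 ± 0.33 in Zhongshuang 9 (SE; edgeR adjusted p = 1.24e-06 and 7.58e-07). BnaA03g38940D (222 bases) averaged 1342 TPM under submergence and 22.4 TPM in air in Avatar, and 1631 TPM under submergence and 32.4 TPM in air in Zhongshuang 9. It rose by 5.57 and 5.38 on the log2 scale. BnaC08g12910D (261 bases) averaged 1372 TPM under submergence and 67.6 TPM in air in Avatar, and 1458 TPM under submergence and 66.6 TPM in air in Zhongshuang 9. It rose by 3.93 and 4.17.

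BnaA07g32130D (243 bases), 20 gene numbers from BnaA07g32150D on chromosome A07, rose further in Zhongshuang 9 by level. It is also 1 of the 4 chosen through their submergence levels. It had 1098, 772 and 549 TPM in Avatar under submergence, against 45.2, 16.8 and 43.2 TPM in air. In Zhongshuang 9 it had 2949, 2333 and 2386 TPM under submergence, against 32.7, 26.0 and 19.2 TPM in air. The submergence libraries of Zhongshuang 9 all lay above those of Avatar. It rose by 4.13 ± 0.41 and 6.33 ± 0.45 on the log2 scale (SE; edgeR adjusted p = 3.51e-05 and 3.16e-06), and the difference between these responses, 2.20 ± 0.52, missed the threshold (edgeR adjusted p = 0.0724).

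The other 17 members that rose in both cultivars were already at or over 100 TPM in air in at least 1 cultivar. BnaC03g71690D (303 bases), the twelfth member by level, had 5854, 6091 and 6658 TPM in Avatar under submergence, against 1964, 2129 and 2103 TPM in air. Zhongshuang 9 had 5928, 6891 and 5409 TPM under submergence, against 2089, 2438 and 2191 TPM in air. Both cultivars showed like levels and like responses, with log2 fold changes of 1.17 ± 0.11 and 1.16 ± 0.11 (SE; edgeR adjusted p = 2.47e-05 and 1.73e-05). Over all 21 the median log2 fold change was 1.06 in Avatar and 1.37 in Zhongshuang 9, and 10 rose at least 2-fold in both.

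Of the members called in 1 cultivar only, 10 fell and 1 rose in Avatar, and 21 fell and 7 rose in Zhongshuang 9. Among all tested targets, 4.06% fell and 5.68% rose in Avatar only, and 7.6% fell and 6.67% rose in Zhongshuang 9 only. Such calls do not show that the cultivars differ, which was tested as the difference between the responses. A call of BnaC03g70700D (486 bases) as higher under submergence in Zhongshuang 9 rested on 1 library. It had 1007, 1.49 and 1.22 TPM under submergence, against 1.94, 1.36 and 0.601 TPM in air in that cultivar. Without replicate 1 the log2 fold change was -0.16 (edgeR adjusted p = 0.766), against 7.69 with it. In Avatar it averaged 1153 ± 83.6 TPM under submergence and 1150 ± 57.4 TPM in air (SD, n = 3 each).

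The response to submergence differed between the cultivars for 3 members, 1 with a higher and 2 with a lower log2 fold change in Zhongshuang 9 (edgeR adjusted p under 0.05), where 0.438% and 0.808% of all tested targets were called. These shares are close to those of the members. BnaC03g60170D (1338 bases) had 130, 112 and 103 TPM in Zhongshuang 9 under submergence, against 1349, 1560 and 1263 TPM in air. In Avatar it had 351, 372 and 428 TPM under submergence, against 1543, 1144 and 1308 TPM in air. The fall was deeper in Zhongshuang 9, with a difference of -1.81 ± 0.26 on the log2 scale (SE; edgeR adjusted p = 0.0151). BnaC08g41800D (336 bases) had 61.7, 42.8 and 44.5 TPM in Zhongshuang 9 under submergence, against 1353, 1387 and 1080 TPM in air. In Avatar it had 155, 231 and 183 TPM under submergence, against 1433, 1511 and 1318 TPM in air. It too fell further in Zhongshuang 9, with a difference of -1.66 ± 0.26 (SE; edgeR adjusted p = 0.0207). BnaUnng04590D (249 bases), the only member with neither subgenome letter, had 1770, 1502 and 1300 TPM in Zhongshuang 9 under submergence, against 455, 435 and 382 TPM in air. In Avatar it had 942, 867 and 965 TPM under submergence, against 646, 466 and 505 TPM in air. It rose in Zhongshuang 9 and missed the threshold in Avatar, with a difference of 1.17 ± 0.21 (SE; edgeR adjusted p = 0.0319). All 3 calls were lost when Zhongshuang 9 air replicate 3 was left out, when 27 members had an unadjusted p under 0.05, against 33 with all libraries. Over the 12 fits with 1 library left out, the number of calls ran from 0 to 10, the highest without Avatar submergence replicate 1.

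The members that rose were short. Coding lengths of the members ran from 111 to 1428 bases with a median of 493.5, against a median of 810 over all targets and 1044 over those tested. Those that rose in both cultivars had a median of 288 bases (126 to 507), those that fell in both 603 (138 to 1428) and the other members 438. Over all tested targets the medians of those that rose in both and fell in both were 1089 and 1074 bases. Under 300 bases there were 41 members, of which 11 rose and 5 fell in both cultivars, where 11.1% of the tested targets of such length rose and 8.69% fell. At or over 300 bases there were 159, of which 10 rose and 90 fell, where 16.1% of the tested targets of such length rose and 14.6% fell. The members of 243 bases held 3 that rose and 1 that fell in both, and their summed TPM averaged 8718 ± 636 under submergence and 5196 ± 829 in air in Avatar, and 8776 ± 237 under submergence and 4345 ± 213 in air in Zhongshuang 9 (SD, n = 3 each). The 9 members of 801 bases held 3 that fell in both and none that rose, and the 7 of 438 bases held 5 that fell and none that rose.

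Length also bears on which targets rank high. TPM divides by an effective length, the number of places where a fragment can start. For members under 300 bases it averaged between 28.3 and 92.8 bases, and its ratio to the coding length had a median of 0.249, against 0.617 in longer members. Ranked instead by CPM, counts scaled by the library total with no division by length, 116 of the 200 members stayed among the 200 highest, and the 84 that did not had a median length of 303 bases. Of the 200 highest by CPM, 103 fell and 10 rose in both cultivars, and the median lengths were 846 bases for those that fell and 484.5 for those that rose. The members' share of the estimated counts was 20.2% ± 1.43 under submergence and 25.9% ± 1.28 in air in Avatar, and 17.6% ± 1.34 under submergence and 26.2% ± 0.969 in air in Zhongshuang 9 (SD, n = 3 each). The part of effective length in the levels of the short members was not tested.

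**Figure D4:**
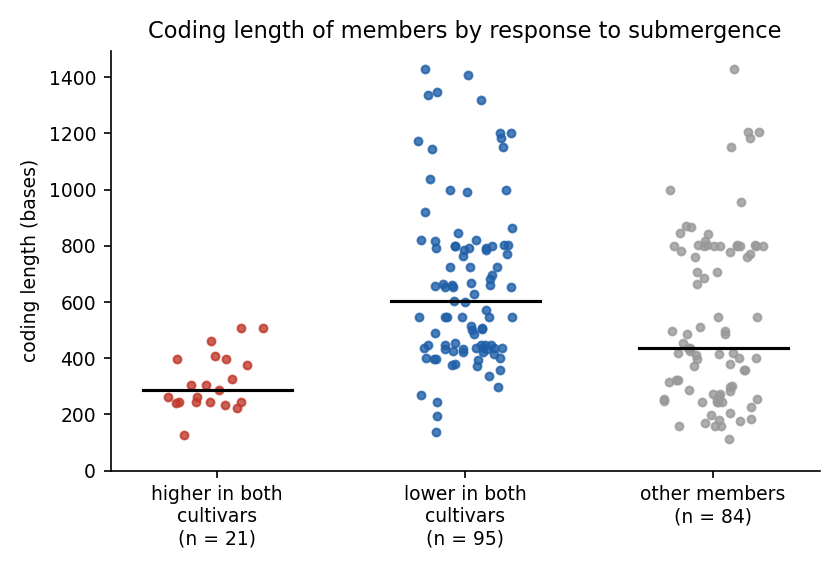
Coding length in bases (y axis, from 0) of the 21 members higher in both cultivars under submergence, the 95 lower in both and the other 84; points are members, spread sideways at random, and bars are medians. The medians are 288, 603 and 438 bases.

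Both subgenomes contributed in about equal measure. Of the members, 93 (46.5%) lie on A chromosomes, 106 (53.0%) on C chromosomes and 1 on neither, against 47.2% A and 52.5% C among tested targets. Chromosome C03 held 20 members, which is 10% of the members, against 7.75% of all targets. A09 held 19, which is 9.50% of the members, against 5.67% of all targets. In TPM, A members made up 54.0%, 50.3% and 51.6% of the members' sum in Avatar under submergence, against 48.9%, 49.8% and 50.2% in Avatar in air. In Zhongshuang 9 it was 46.5%, 47.2% and 47.9% under submergence, against 47.8%, 48.5% and 49.9% in air. The A share was above that in air in every Avatar submergence library, while the treatments overlapped in Zhongshuang 9. The direction in Avatar turned with the choice of members: ranked by median TPM, A members made up 49.5% under submergence and 50.1% in air, and ranked by mean TPM rank, 48.4% under submergence and 49.0% in air. Avatar submergence replicate 1 had the highest A share. It also had 5 of 13 C08 members under 70% of the mean of the other replicates of its group. The most abundant A member of submerged Avatar, BnaA09g54870D, was nearly absent from Zhongshuang 9. That member summed to 177295 counts in Avatar under submergence, against 32040 counts in Avatar in air. Its part in the A share of Avatar was not tested.

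Members of both subgenomes fell under submergence. In both cultivars 39 A members (41.9%) and 56 C members (52.8%) fell, against 15.1% of tested A targets and 13.6% of tested C targets. In both cultivars 11 A members (11.8%) and 10 C members (9.43%) rose, against 15.4% and 16.1% of tested A and C targets. The median log2 fold change was -0.58 for A members and -0.65 for C members in Avatar, and -0.83 for A members and -0.69 for C members in Zhongshuang 9. As a share of all TPM, A members held 16.6% under submergence and 17.8% in air in Avatar, and 13.8% under submergence and 17.8% in air in Zhongshuang 9. C members held 15.2% under submergence and 18.0% in air in Avatar, and 15.3% under submergence and 18.7% in air in Zhongshuang 9. No difference between the subgenomes was tested.

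Some members could not be told apart by their values. In 3 sets, holding 7 members, TPM was the same in all 12 libraries to 3 decimals. BnaC07g47800D and BnaA07g04280D (357 bases) form 1 such set across the subgenomes, at mean levels of 3970 TPM under submergence and 3915 TPM in air in Avatar, and 1983 TPM under submergence and 2815 TPM in air in Zhongshuang 9. BnaC06g28720D, BnaC06g28730D and BnaC06g28740D (255 bases) are neighbours on C06, and BnaA05g33520D and BnaA03g27890D (159 bases) lie on separate A chromosomes. Among members on named chromosomes, 12 neighbouring pairs lay within 100 gene numbers of each other, and 6 of these pairs were of equal length.

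Zhongshuang 9 differed from Avatar in fewer members than submergence did from air, as it did over all tested targets. Of all tested targets, 17.1% differed between the cultivars in air and 24.5% under submergence. Submergence changed 40% of them in Avatar and 44.5% in Zhongshuang 9. Of the members, 15% differed between the cultivars in air, close to the share of all tested targets, and 31% under submergence. In air 7 members (3.5%) were higher and 23 (11.5%) lower in Zhongshuang 9 (edgeR adjusted p under 0.05), where 6.6% of all tested targets were higher and 10.5% lower. Under submergence 21 (10.5%) were higher and 41 (20.5%) lower, where 10.3% of all tested targets were higher and 14.2% lower. Under both treatments 6 (3%) were higher and 19 (9.5%) lower, against 3.75% and 7.08% of all tested targets. Of the 19, 13 lie on A and 6 on C chromosomes, which is 14% of A members and 5.66% of C members, against 9.54% and 4.85% of tested A and C targets. Of the 6 that were higher, 1 lies on A and 5 on C chromosomes, which is 1.08% of A members and 4.72% of C members, against 3.87% and 3.63% of tested A and C targets. Of these 5, 3 are the C06 neighbours whose TPM was the same in all 12 libraries. With identical members counted once, 5 were higher and 22 lower in air, and 19 higher and 39 lower under submergence. The shares by subgenome count every identical member. Without the 2 libraries that lack BnaC02g03550D, 11 were higher and 27 lower in air (7.35% and 12.1% of all tested targets), and 27 higher and 36 lower under submergence (11% and 16.6%). The count of 41 was 23 without Avatar submergence replicate 3 and 25 without replicate 4, and the count of 7 was 4 without Avatar air replicate 4 or Zhongshuang 9 air replicate 4.

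BnaA09g54870D (288 bases), which reached the highest TPM of any member in a submerged Avatar library, was nearly absent from Zhongshuang 9. Under submergence it had 1.04, 0 and 0.446 TPM in Zhongshuang 9, against 14114, 4843 and 11834 TPM in Avatar. In air it had 4, 0.352 and 0.343 TPM in Zhongshuang 9, against 3300, 0 and 2444 TPM in Avatar. Avatar air replicate 3, at 0, stood with Zhongshuang 9. Over the 3 libraries of a group this was 8 counts in Zhongshuang 9 under submergence (exact 95% Poisson interval 3.45 to 15.8) and 25 in air (16.2 to 36.9), against 177295 and 32040 counts in Avatar. A count of 0 in a library allows up to 3 counts, and intervals cover counting error only. The fitted log2 fold change was -14.13 ± 2.70 under submergence and -10.34 ± 2.33 in air (SE; edgeR adjusted p = 0.00359 and 0.0117). This member was chosen through its Avatar levels, so the gap and these p-values are not independent of that choice. The call in air was lost in 4 of 21 alternatives, with adjusted p between 5.87e-06 and 0.203 by the tool used in each. Between treatments the member was not called in Avatar (log2 fold change 1.96 ± 1.56, edgeR adjusted p = 0.349).

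BnaC08g25680D (726 bases) was lower in Zhongshuang 9 throughout. Under submergence it had 5.12, 7.37 and 6.42 TPM in Zhongshuang 9, against 507, 1203 and 1263 TPM in Avatar. In air it had 18.5, 17.1 and 8.42 TPM in Zhongshuang 9, against 1700, 1568 and 1755 TPM in Avatar. The cultivars did not overlap, and the log2 fold change was -7.32 ± 0.49 under submergence and -6.87 ± 0.48 in air (SE; edgeR adjusted p = 4.34e-06 and 6.05e-06). BnaC03g70700D was lower in Zhongshuang 9 in air, with a log2 fold change of -9.87 (edgeR adjusted p = 0.0163, lost in 4 of 21 alternatives). Both members were chosen mainly through their Avatar levels, so these gaps and p-values are not independent of that choice.

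Other cultivar differences, named after their values were seen, are given next. The A05 and A03 pair of 159 bases, BnaA05g33520D and BnaA03g27890D, averaged 152 ± 23.7 TPM in Zhongshuang 9 and 1828 ± 418 TPM in Avatar under submergence, and 109 ± 19.3 TPM in Zhongshuang 9 and 1627 ± 142 TPM in Avatar in air (SD, n = 3 each). Their log2 fold change was -3.67 under submergence and -3.70 in air. This pair, too, was chosen through its Avatar levels. BnaA09g26570D (804 bases) had 1599, 184 and 203 TPM in Zhongshuang 9 under submergence, against 3061, 2756 and 2633 TPM in Avatar. BnaA08g17660D (804 bases) had 2350, 653 and 676 TPM in Zhongshuang 9 under submergence, against 3692, 4907 and 4591 TPM in Avatar. In both, Zhongshuang 9 submergence replicate 1 stood well above the other replicates of its group and below Avatar. The summed TPM of the 6 members of 804 bases averaged 16598 ± 1580 in Zhongshuang 9 and 27637 ± 1069 in Avatar under submergence, and 23215 ± 1666 in Zhongshuang 9 and 36377 ± 4249 in Avatar in air (SD, n = 3 each).

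Higher in Zhongshuang 9 under both treatments were the 3 identical C06 neighbours. BnaC06g28720D had 3244, 1227 and 950 TPM in Zhongshuang 9 under submergence, against 513, 277 and 257 TPM in Avatar. In air it had 2708, 2015 and 1269 TPM in Zhongshuang 9, against 314, 561 and 325 TPM in Avatar. The cultivars did not overlap, and the log2 fold change was 2.41 ± 0.48 under submergence and 2.28 ± 0.47 in air (SE; edgeR adjusted p = 0.00445 and 0.00751). These neighbours were chosen through their Zhongshuang 9 levels, so the gap and p-values are not independent of that choice. BnaC03g32930D (159 bases) averaged 4732 ± 630 TPM in Zhongshuang 9 and 1178 ± 256 TPM in Avatar under submergence, and 2636 ± 909 TPM in Zhongshuang 9 and 980 ± 132 TPM in Avatar in air (SD, n = 3 each). Its log2 fold change was 1.92 under submergence and 1.59 in air (edgeR adjusted p = 2.28e-05 and 9.05e-05).

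**Figure D5:**
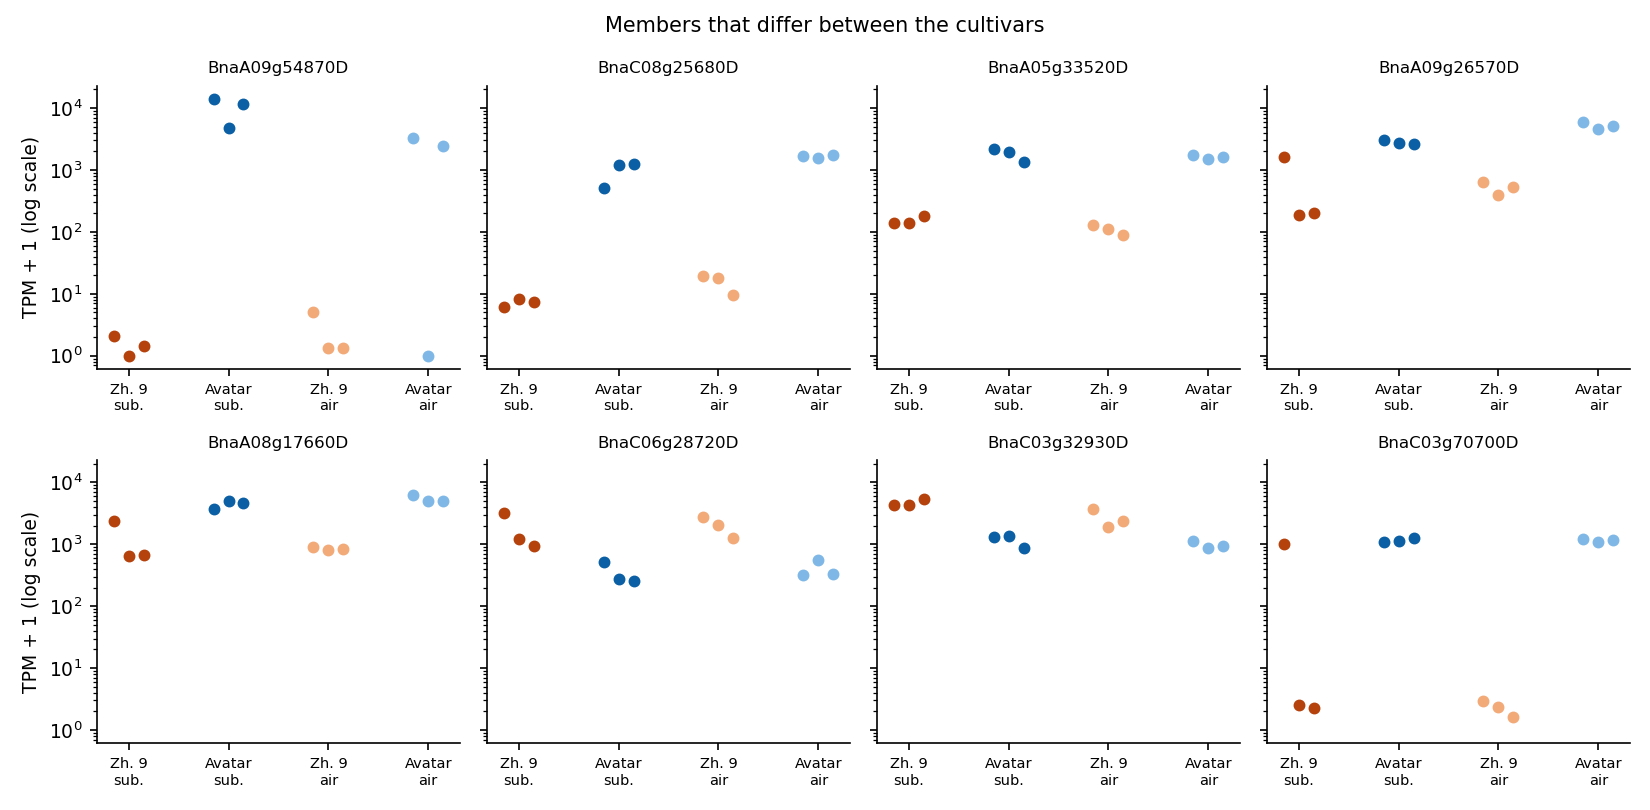
TPM + 1 (log axis) of 8 members that differ between the cultivars under at least 1 treatment, by library; in each panel Zhongshuang 9 stands left of Avatar, under submergence and then in air, and points are replicates 1, 3 and 4 from left to right. BnaA09g54870D is at or below 4 TPM in Zhongshuang 9, and BnaC03g70700D reaches 1007 TPM there in 1 library.

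Single libraries also decided the level of further members. BnaA03g15830D (801 bases) had 19.6, 1685 and 1603 TPM in Zhongshuang 9 under submergence, against 2438, 2198 and 2439 TPM in air, and it was not called there (log2 fold change -1.35 ± 1.01, edgeR adjusted p = 0.306). BnaA07g07570D (300 bases), next to BnaA07g07560D, was listed at essentially 0 in Zhongshuang 9 air replicate 3, against 936 and 1512 TPM in replicates 1 and 4. It had 291, 209 and 455 TPM under submergence in that cultivar.

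In all, 32 members were called in none of the 5 contrasts, which is 16.0% of the members, against 35.5% of all tested targets. Among them were BnaA04g08640D, BnaA04g20150D and BnaC09g16500D of the 10 highest. BnaC09g01520D (801 bases), named after its values were seen, had 2390 ± 167 TPM under submergence and 1999 ± 65.1 TPM in air in Avatar, and 2843 ± 176 TPM under submergence and 2254 ± 38.4 TPM in air in Zhongshuang 9 (SD, n = 3 each). A p that misses the threshold does not show that levels were equal.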

How the data were processed

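RNA from the first true leaf was sequenced in 12 libraries, 3 per cultivar and treatment. The deposited tables hold, per the file headers, an estimated count and a TPM value for each coding sequence. Per the submitters' processing notes, kallisto, edgeR and limma were used, with no version stated. The build and the annotation of the identifiers are, likewise, not given in the sources used. Libraries summed to 24389813 to 35873196 estimated counts; a count of 0 allows up to 3 counts in a library, and intervals cover counting error only.

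Members were ranked by mean TPM over the 12 libraries. For tests, estimated counts were rounded to whole numbers and filtered with filterByExpr, which kept 55674 of 101040 targets. edgeR 4.0.16 (R 4.3.3) was run with TMM factors and a mean for each of the 4 groups, with the quasi-likelihood F test for 5 contrasts, adjusted by Benjamini-Hochberg over all tested targets at a threshold of 0.05. TMM factors lay between 1.08 and 1.20 under submergence and between 0.852 and 0.919 in air. Standard errors were derived from each fold change and its F value. The fit was also run on simulated counts with known fold changes. These held no reads divided between targets, so that run cannot speak to members that share reads. Alternatives were DESeq2 1.42.0, RLE factors, library totals, limma 3.58.1 on log2(TPM + 1) and log2(TPM + 0.1), no filter, only the libraries compared, a replicate block, each library left out in turn, other rankings of members and, added after the data were seen, the 200 highest by mean CPM and identical members counted once.

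Members and gene lists were chosen with earlier results of these data known. The text names the 10 highest members, the largest changes per contrast, targets at the limit of 200, members with a RefSeq match and members nearly absent from 1 library; others are said to be named after their values were seen. Gene lists by function, leaf markers, sequences and A and C copy pairs were not used here, because the 8 matched members carried no product name.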

Additional observations from a re-analysis of the deposited data

Results flagged for a closer look

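The test of the difference between the responses of the cultivars singled out 3 members. For BnaUnng04590D the log2 fold change under submergence was higher in Zhongshuang 9 than in Avatar by 1.17, and over 20 alternatives the adjusted p lay between 1.14e-05 and 0.0993, above the threshold in 8. For BnaC03g60170D the difference was -1.81, with an adjusted p between 4.35e-07 and 0.0538 over 20 alternatives, above the threshold in 1. For BnaC08g41800D it was -1.66, with an adjusted p between 1.6e-05 and 0.0689 over 20 alternatives, above the threshold in 5. BnaC08g41800D lies on C08. In Zhongshuang 9 air replicate 4, 12 of the 13 C08 members stood under 70% of the mean of the other replicates. The highest stood at 78.8%. BnaC08g41800D was not among the 12. Its level in that library was 1080 TPM, against 1353 and 1387 TPM in replicates 1 and 3. The part of that library in the difference was not tested beyond leaving it out.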

How the results depend on the processing

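With single libraries left out, 87 to 123 members fell and 21 to 24 rose in Avatar, 105 to 117 fell and 22 to 29 rose in Zhongshuang 9, and the difference between responses was higher in 0 to 4 and lower in 0 to 6; members were higher in Zhongshuang 9 in 4 to 9 and lower in 18 to 30 in air, and higher in 17 to 26 and lower in 23 to 42 under submergence. The members' share of TPM then ran from 31.2% to 32.5% and from 35.1% to 36.3% in Avatar, and from 28.8% to 30.0% and from 36.1% to 36.9% in Zhongshuang 9, submergence before air, and the A share of their TPM from 50.9% to 52.8%, 49.3% to 49.98%, 46.9% to 47.6% and 48.1% to 49.2% in the same order of groups. The call of BnaC03g70700D as higher under submergence in Zhongshuang 9 (log2 fold change 7.69) turned to -0.16 without replicate 1 of that group, was up to 8.28 with another library left out, and was -0.16 without the 2 libraries that lack BnaC02g03550D.

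Same-numbered libraries of different groups did not all deviate together (correlations of -0.154 to 0.115 over all tested targets and of -0.200 to 0.271 over the members), and the labels give the numbers no meaning, so they were not taken to pair the samples. Over the members alone, all 3 same-numbered pairs of Zhongshuang 9 under submergence and in air reached 0.104 to 0.221. With the replicate block 97 members fell and 23 rose in Avatar and 114 fell and 27 rose in Zhongshuang 9, the difference was higher in 2 and lower in 3, and Zhongshuang 9 was higher in 6 and lower in 24 in air and higher in 22 and lower in 34 under submergence.

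Risen members in Avatar numbered 34 with library totals and 10 for the 200 highest by mean CPM, and in Zhongshuang 9 13 for that list of 200. Fallen members in Avatar numbered 66 with limma at either pseudocount. The difference was higher in 10 with DESeq2, 3 without the 2 libraries that lack BnaC02g03550D and 0 for the CPM list, and lower in 6 with DESeq2, 5 with library totals, 4 and 6 with limma at 0.1 and 1, and 1 for the CPM list. In air Zhongshuang 9 was higher in 12 with only the libraries compared, 11 without the 2 libraries that lack BnaC02g03550D and 4 for the CPM list; under submergence it was higher in 34 with DESeq2 and lower in 22 with only the libraries compared. RLE factors and no filter moved none of these counts by over 1.5 times. The cause of these shifts was not tested.

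The share of TPM in submerged Avatar was 30.4% for members ranked by median TPM, 23.0% by mean CPM, 29.9% by mean rank, 23.4% for 100 members and 20.2% in estimated counts. In Avatar in air it was 29.5% by CPM, 34.6% by rank, 25.9% for 100 members and 25.9% in estimated counts. In Zhongshuang 9 it was 20.6% by CPM, 21.5% for 100 members and 17.6% in estimated counts under submergence, and 30.0%, 27.0% and 26.2% in air. The A share was 49.5% by median, 48.4% by rank and 54.6% for 100 members in submerged Avatar, and 52.4% by CPM and 53.3% for 100 members in Avatar in air, where it was 50.1% by median and 49.0% by rank, above submergence. It was 45.9% by median, 50.5% by CPM, 45.2% by rank and 49.1% for 100 members in submerged Zhongshuang 9, and 53.1% by CPM and 52.0% for 100 members in Zhongshuang 9 in air. Of 942 recomputed values of named members, 878 were counted as unchanged, 53 lost and 9 gained a call, and 2 reversed. Some values without a call changed sign. The log2 fold change over 21 alternatives ran from -0.40 to 1.04 for BnaA04g08640D in Avatar. For BnaC09g16500D it ran from -0.008 to 0.56 in Avatar and from -0.40 to 0.07 in Zhongshuang 9.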
